A study of Homo sapiens with 2 samples.

Results

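The axon guidance ligands and receptors of HT1080 cells were examined in 75 of the 18417 genes measured, found by gene symbol as the semaphorins of classes 3 to 7, plexins, PLXDC proteins, neuropilins, netrins, UNC5 receptors, Slits, ROBO receptors, SLITRK proteins, ephrins and EPH receptors. HT1080 is an established human fibrosarcoma line. The cells were kept for 24 h in wells coated with rLCC111 at 1 µg per well, or in control wells coated with BSA. The protein rLCC111 is a recombinant heterotrimer of truncated mouse laminin α1, β1 and γ1 chains, made in human embryonic kidney cells. It holds their coiled-coil and a few EGF-like modules. Each coating was hybridized to 1 GeneChip Human Gene 1.0 ST array, so no difference has a replicate check and no p-value is given. The question was how the transcripts of the line differed between the rLCC111 array and the BSA array.

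Axon guidance molecules are secreted or cell-surface cues and the receptors that read them, first known for steering growing neurites by attraction or repulsion. Semaphorins signal through plexins, with neuropilins as co-receptors of the secreted class. Netrins signal through DCC and UNC5 receptors, Slits through ROBO receptors, and ephrins through the EPH receptor tyrosine kinases of neighbouring cells. The same molecules act outside the nervous system on the actin cytoskeleton, on integrin adhesion and on the spacing of migrating and endothelial cells.

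Levels are log2 expression values as deposited, and each difference is the level on rLCC111 minus that on BSA, so that a difference of 1 is a fold of 2. The array medians were 7.12 on rLCC111 and 7.04 on BSA. A limit for dim signals was set at 6.62, below which 95% of 379 olfactory, taste, vomeronasal and trace amine receptor genes lay by mean level, since a fibrosarcoma line should transcribe few of these. Of the 75 genes, 49 lay above it on both arrays, 3 on 1 array and 23 on neither. The differences of the sensory receptor genes had an SD of 0.18, and 2 of them were at least 2-fold higher on rLCC111. Vimentin, VIM, a marker of mesenchymal cells, was at 12.98 on rLCC111 and 13.05 on BSA, and 7 of 10 mesenchymal markers lay above the limit on both arrays. The defining markers EPCAM of epithelial cells, PECAM1 and CDH5 of endothelial cells and PTPRC of blood cells were below the limit on both arrays. Other genes of these lists lay above it on both arrays, namely CLDN3 and KRT14 of the epithelial list, TIE1 and CLDN5 of the endothelial list and CD68 and CD14 of the blood list. CD68, a lysosomal protein, stood at 11.41 on rLCC111 and 11.52 on BSA, and CLDN3 at 8.06 on both arrays. The part of other cell types in the levels was not tested. Of 10 neuronal markers measured, 6 were below the limit on both arrays and 4 above it on both. The neurofilament gene NEFL stood at 9.97 on rLCC111 and 10.39 on BSA, and SNAP25 at 8.13 on rLCC111 and 7.67 on BSA. SYN1 and RBFOX3 lay nearer the limit, at 6.97 and 6.82 on rLCC111 and 7.01 and 6.83 on BSA. In these bulk samples, fewer cells with a transcript and less of it per cell cannot be told apart.

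Differences past 0.5 on the log2 scale were higher on rLCC111 in 5 members and lower in 1. All belonged to cell-surface proteins, as do most members, since 13 of the 75 are class 3 semaphorins, Slits or secreted netrins. PLXDC2, UNC5B and SLITRK6 were at least 2-fold higher on rLCC111, which is 3 of 75 genes (4.0%) against 0.239% of all genes. SLITRK6 was dim on both arrays, and UNC5B was short of 2-fold after median centring and after quantile normalization. With the brighter array required above the limit, the count was 2 of 52 members, against 0.323% of 12700 genes. These families were taken up with earlier results of the same arrays known, so the shares are a description and not independent support. No member was at least 2-fold lower, against 0.0869% of all genes. At the size of 0.5, the 5 higher members were these 3 with NRP2 and EPHB6 (6.67%), against 1.68% of all genes. ROBO4 alone was lower by that size, against 1.0% of all genes. The middle 95% of all genes ran from -0.37 to 0.42, and 8 members lay outside it, 5 above and 3 below, while the other 67 lay inside. The median over all 75 members was 0.06, against 0.00 over all genes.

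**Figure D1:**
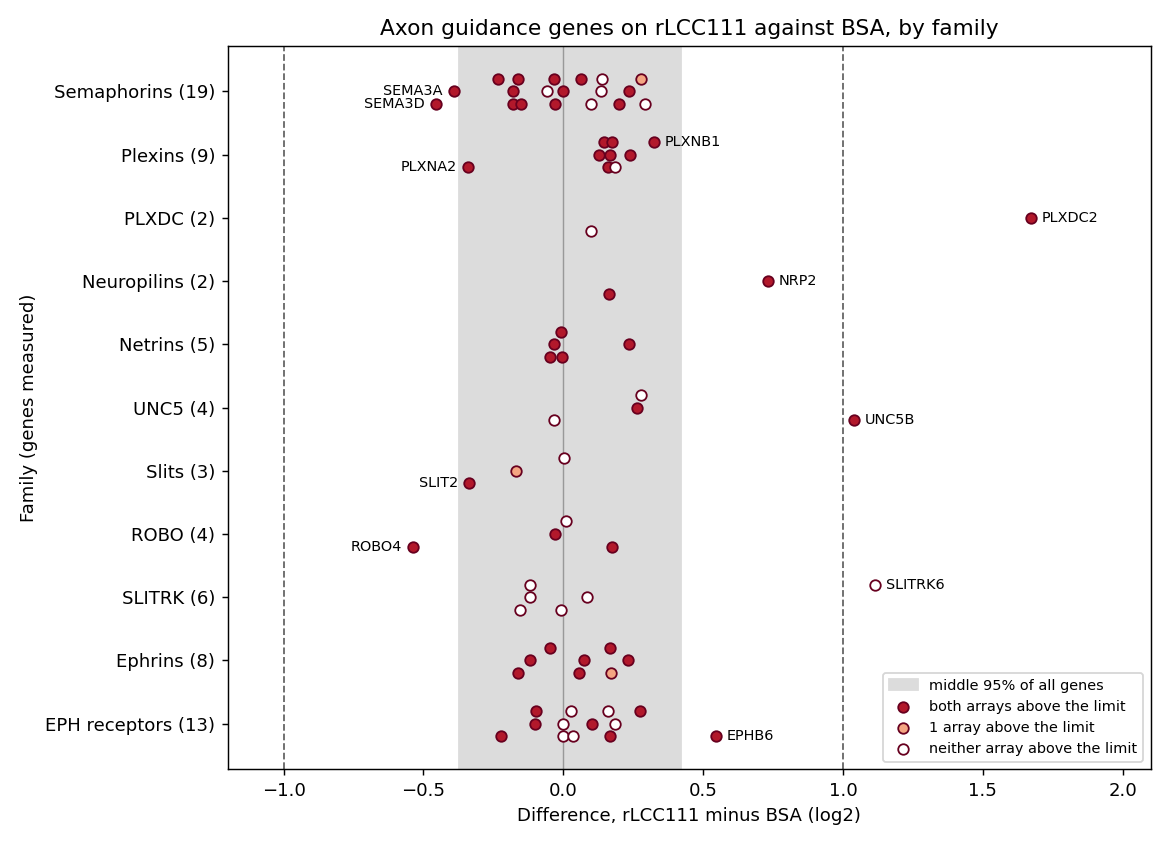
Log2 difference, rLCC111 minus BSA (horizontal), of each of 75 genes by family (vertical, with the number of genes), 1 array per coating; fill shows how many of the arrays were above the limit of 6.62, the grey band is the middle 95% of all genes and dashed lines mark 2-fold. PLXDC2 at 1.67 lies farthest right and ROBO4 at -0.54 farthest left, and 67 of the points lie inside the band.

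To show what the members past 0.5 in size have in common at their starts, the 250 bases upstream of 1 annotated start per gene are given as RefSeq's promoter table (GRCh38.p14) holds them. It has 35116 entries for 27305 gene symbols. Where a gene had several, the first listed was used, and its other starts were not examined. The table matched 63 members, and UNC5B is not among them. Capitals mark matches, on either strand, to GGGCGG of SP1 or TGANTCA of AP-1.
PLXDC2, chr10:19816182-19816431, plus strand: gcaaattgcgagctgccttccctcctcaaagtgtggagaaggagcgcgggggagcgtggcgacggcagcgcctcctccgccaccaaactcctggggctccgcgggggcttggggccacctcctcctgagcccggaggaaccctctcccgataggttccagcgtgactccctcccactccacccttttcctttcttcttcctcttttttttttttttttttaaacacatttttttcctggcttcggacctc
SLITRK6, chr13:85799420-85799669, minus strand: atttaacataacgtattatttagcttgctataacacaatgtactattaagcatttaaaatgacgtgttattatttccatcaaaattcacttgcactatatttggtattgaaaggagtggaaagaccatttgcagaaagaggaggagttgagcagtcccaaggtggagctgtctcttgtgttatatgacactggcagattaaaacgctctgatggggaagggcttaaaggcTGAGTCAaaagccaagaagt
NRP2, chr2:205682251-205682500, plus strand: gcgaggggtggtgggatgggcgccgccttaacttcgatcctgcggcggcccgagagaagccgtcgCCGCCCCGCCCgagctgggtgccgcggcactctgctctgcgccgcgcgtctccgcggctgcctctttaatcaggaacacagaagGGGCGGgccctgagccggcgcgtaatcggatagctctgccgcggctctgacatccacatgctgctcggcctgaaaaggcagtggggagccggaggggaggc
EPHB6, chr7:142862506-142862755, plus strand: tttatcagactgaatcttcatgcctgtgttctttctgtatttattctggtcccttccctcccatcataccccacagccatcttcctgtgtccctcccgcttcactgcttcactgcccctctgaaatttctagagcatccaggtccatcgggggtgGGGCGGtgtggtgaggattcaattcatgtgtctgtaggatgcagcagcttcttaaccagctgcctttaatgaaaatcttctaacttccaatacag
ROBO4, chr11:124897866-124898115, minus strand: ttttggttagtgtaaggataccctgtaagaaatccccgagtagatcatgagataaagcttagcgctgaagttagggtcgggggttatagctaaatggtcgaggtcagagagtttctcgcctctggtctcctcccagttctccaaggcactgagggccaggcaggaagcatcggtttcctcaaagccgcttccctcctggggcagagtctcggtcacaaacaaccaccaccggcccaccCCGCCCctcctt
The NRP2 window held 3 SP1 matches, a pair of which overlap by 1 base, those of EPHB6 and ROBO4 1 each, and those of PLXDC2 and SLITRK6 none. The SLITRK6 window held 1 AP-1 match, which ends 14 bases before the start. Among all 63 windows 42 held an SP1 match (66.7%) and 2 an AP-1 match (3.17%), against 42.3% and 6.60% of 27305 promoters of the same length. The 63 windows were also richer in G and C, with a median of 63.2%, against 58% over all promoters. Their median count of the letters CG was 15, against 11. The part of base composition in the motif shares was not tested. TATAAA was found in 1 member (all promoters, 11.1%), GGAATG, bound by TEAD factors, in 5 (11.9%), and GTCTAGAC, the SMAD palindrome, in 0 (0.176%). None of these 5 motifs was found in all 5 printed windows, which ran from 37.6% G and C in SLITRK6 to 70.0% in NRP2. A match is a description of letters and not a binding site.

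PLXDC2, a transmembrane protein with a plexin-like domain that serves as a receptor of the secreted factor PEDF, had the largest difference of the 75. Its level (array sequence 7926545) was 10.05 on rLCC111 and 8.38 on BSA, a fold of 3.19 and the 8th most positive difference of 18417 genes. Both levels lay above the limit of dim signals. PLXDC1, its paralogue and another receptor of PEDF, was below the limit on both arrays, at 6.08 on rLCC111 and 5.98 on BSA. The gene of PEDF itself, SERPINF1, was also dim, at 6.18 on rLCC111 and 5.88 on BSA.

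**Figure D2:**
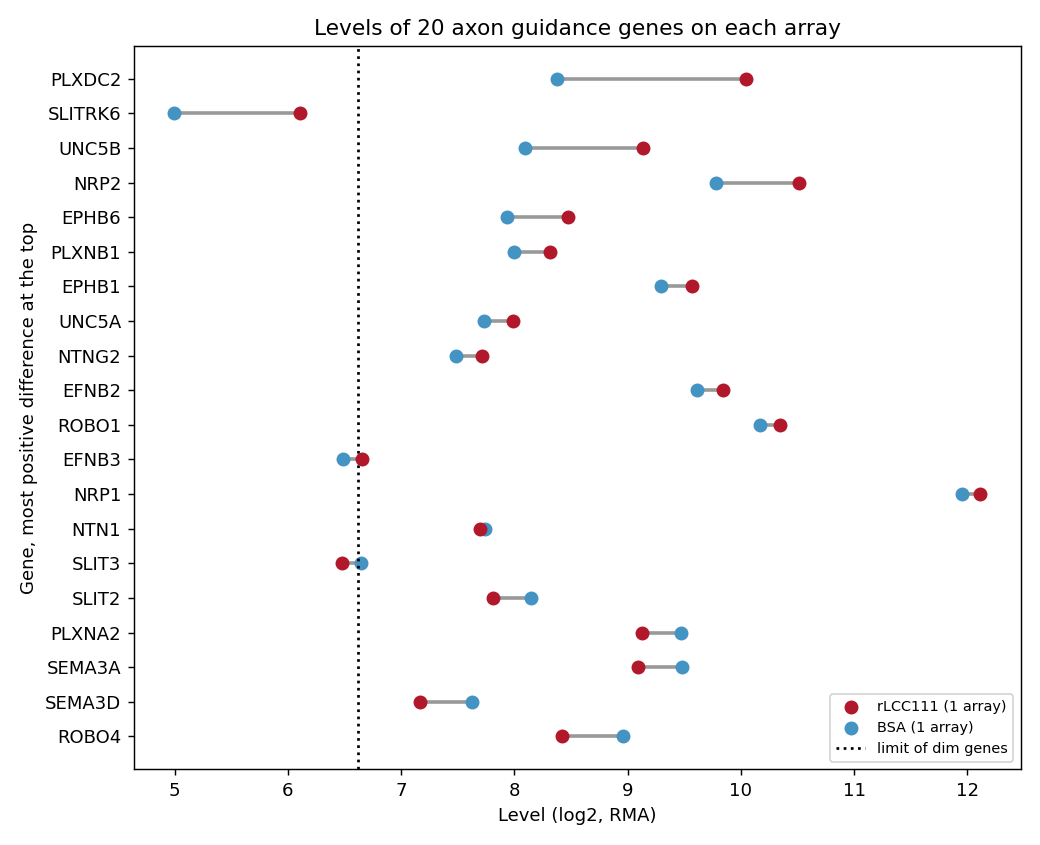
Log2 level of 20 genes (vertical, in order of their difference) on the rLCC111 array (red) and the BSA array (blue), 1 array each; the dotted line is the limit of 6.62. The red point lies right of the blue one for the upper 13 genes and left of it for the lower 7, and SLITRK6, at 6.11 on rLCC111 and 4.99 on BSA, lies below the limit on both arrays.

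Netrin receptors lay on both sides of 0, with UNC5B higher and DCC lower on rLCC111, while the secreted netrins differed by less than 0.05. UNC5B, which mediates repulsion by netrin-1 and is also expressed by endothelial cells, was at 9.13 on rLCC111 and 8.10 on BSA (sequence 7928189), a fold of 2.05. It ranked 40th among all genes, but its difference was 0.96 after median centring and 0.98 after quantile normalization, both short of 2-fold. UNC5A, of the same family, was at 7.99 on rLCC111 and 7.73 on BSA, a fold of 1.20. UNC5C and UNC5D were below the limit on both arrays, with differences of 0.28 and -0.03. Of the 4 UNC5 genes, 3, among them the dim UNC5C, had a difference above 0, against 46.2% of all genes. This count was the same under each other scaling, where 26.4% to 44.2% of all genes lay above 0. The 3 differences above 0 were at least 0.26 and no member moved by more than 0.087 under a scaling, so none could fall below 0. In contrast, DCC, the receptor through which netrin-1 attracts neurites, was at 7.62 on rLCC111 and 8.30 on BSA, a fold of 0.626. NEO1, the DCC paralogue neogenin, had a fold of 1.09 at 8.41 on rLCC111 and 8.29 on BSA. Of the ligands, NTN1, which encodes netrin-1, was at 7.70 on rLCC111 and 7.74 on BSA. NTN3 was at 7.60 and NTN4 at 8.70 on rLCC111, against 7.63 and 8.71 on BSA. The membrane-anchored netrins G split, with NTNG2 at 7.72 on rLCC111 and 7.48 on BSA (fold 1.18) and NTNG1 at 7.56 on rLCC111 and 7.57 on BSA. NTNG1 and NTNG2 do not bind DCC or UNC5 but the NGL adhesion proteins. The netrin family thus held 1 gene above 0 and 4 below, all within 0.24 of 0.

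Among neuropilins and plexins, the receptors of semaphorins, NRP2 was at least 0.5 higher on rLCC111, while NRP1 and most plexins were slightly higher. NRP2, a co-receptor of class 3 semaphorins and of VEGF-C, was at 10.51 on rLCC111 and 9.78 on BSA, a fold of 1.66 and the 102nd most positive difference of all genes. A further array sequence of NRP2 stood at 10.12 on rLCC111 and 9.20 on BSA, a fold of 1.89, so that both sequences of this gene were higher. The paralogue NRP1, the co-receptor of SEMA3A and of VEGF-A, was at 12.11 on rLCC111 and 11.95 on BSA, a fold of 1.12. Of 9 plexins, 8 had a difference above 0 and 1 below, against 46.2% of all genes above 0. The family median of 0.17 was 0.086 once the arrays were centred on their medians, 0.17 without the lowess trend and 0.15 with quantile normalization. No member moved by more than 0.079, 0.046 and 0.087 under these scalings, in that order. The plexin nearest 0, PLXNA3, had a difference of 0.13, so the 8 to 1 split could not change. PLXNB1, the receptor of SEMA4D, had the largest of these differences, at 8.32 on rLCC111 and 7.99 on BSA, a fold of 1.25. PLXNB2 and PLXNB3 had folds of 1.12 and 1.13, so all 3 class B plexins lay above 0. PLXND1, which binds SEMA3E without a neuropilin, was at 9.28 on rLCC111 and 9.04 on BSA (fold 1.18). PLXNA1, PLXNA3 and PLXNA4 had folds of 1.12, 1.09 and 1.10. The exception was PLXNA2, a receptor of SEMA6A and of class 3 semaphorins, at 9.13 on rLCC111 and 9.47 on BSA, a fold of 0.789. PLXNC1, the receptor of SEMA7A, was dim on both arrays, at 5.52 on rLCC111 and 5.34 on BSA. None of the plexin differences reached 0.5, and each lay inside the middle 95% of all genes.

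Among 19 semaphorins none reached a difference of 0.5 as deposited, and the secreted class lay lower. Of 7 class 3 genes, 5 had a difference below 0, against 46.6% of all genes. SEMA3D was at 7.17 on rLCC111 and 7.63 on BSA, a fold of 0.729. SEMA3A, the classical collapsing factor of growth cones, was at 9.09 on rLCC111 and 9.48 on BSA, a fold of 0.762. These were the lowest of all semaphorins, and SEMA3D and SEMA3A are next to each other among the protein-coding genes of RefSeq. SEMA3E, the other neighbour of SEMA3A, was dim on both arrays, at 4.46 on rLCC111 and 4.51 on BSA. SEMA3F and SEMA3G, which signal through NRP2, had folds of 0.894 and 0.883, with SEMA3F at 8.96 on rLCC111 and 9.12 on BSA. SEMA3C was at 9.37 on rLCC111 and 9.31 on BSA, and SEMA3B was below the limit on both arrays, at 6.56 on rLCC111 and 6.42 on BSA. The class 3 median was -0.16 as deposited. It was -0.24 with the arrays centred on their medians, -0.16 without the lowess trend and -0.20 with quantile normalization. The median of all genes moved as well, from 0.00 as deposited to -0.079, -0.020 and -0.058 in that order.

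The membrane-bound semaphorins showed no common direction. Of 12 genes of classes 4 to 7, 6 had a difference above 0, 5 below, and SEMA5B was equal on both arrays at 6.90. SEMA4D, the ligand of PLXNB1, was at 8.79 on rLCC111 and 9.03 on BSA, a fold of 0.850, but its other array sequence, which was dim, had a fold of 1.10. SEMA4B had a fold of 0.882 and SEMA4G one of 1.18, at 7.54 on rLCC111 and 7.30 on BSA. SEMA4F and SEMA7A, a lipid-anchored semaphorin that also binds integrins, hardly differed. SEMA7A stood at 12.02 on rLCC111 and 12.05 on BSA, SEMA4F at 8.22 on rLCC111 and 8.25 on BSA. In class 6, whose members bind class A plexins, SEMA6B had a fold of 1.15 and SEMA6C one of 0.900. SEMA5A was above the limit on the rLCC111 array only, at 6.71, against 6.43 on BSA. SEMA4A, SEMA6A and SEMA6D were dim on both arrays, with differences between 0.10 and 0.29.

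Among Slits and their ROBO receptors, ROBO4 had the 1 difference past 0.5, and it was lower on rLCC111. ROBO4, the ROBO receptor of endothelial cells, was at 8.42 on rLCC111 and 8.96 on BSA (sequence 7952453), a fold of 0.688 and the 136th most negative difference of all genes. Its neighbour ROBO3, a receptor of commissural neurons, was at 7.16 on rLCC111 and 7.19 on BSA. ROBO1, the main receptor of SLIT2, was at 10.34 on rLCC111 and 10.17 on BSA, a fold of 1.13, and ROBO2 was dim on both arrays. SLIT2 itself was at 7.81 on rLCC111 and 8.15 on BSA, a fold of 0.792. SLIT3 was above the limit on the BSA array only, at 6.48 on rLCC111 and 6.65 on BSA, while SLIT1 was dim on both arrays at 6.49. Beside ROBO4, 9 endothelial markers were measured, of which 2, TIE1 and CLDN5, lay above the limit on both arrays. TIE1 and CLDN5 had log2 differences of -0.16 and -0.21. ESAM, above the limit on the BSA array only, had the lowest of the 9 at -0.49, and VWF, dim on both arrays, had -0.36. The 5 markers with a difference above 0, up to 0.51 for EMCN, were all dim on both arrays. The log2 of the summed level of the 9 markers was 11.08 on rLCC111 and 11.22 on BSA. The part of endothelial transcripts in the ROBO4 value was not tested.

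SLITRK6, a leucine-rich repeat protein that shapes neurites and is needed in the inner ear, was the 1 member of its family with a large difference. It was at 6.11 on rLCC111 and 4.99 on BSA (sequence 7972239), a fold of 2.16, but both levels lay below the limit of 6.62, so that this fold rests on a dim signal. The sensory receptor genes, chosen as silent, were at least 0.5 higher in 11 of 379 cases (2.90%) and at least 0.5 lower in 0. The other 5 SLITRK genes were likewise below the limit on both arrays, with differences between -0.15 and 0.09. SLITRK1, the neighbour of SLITRK6, was at 5.87 on rLCC111 and 5.99 on BSA.

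**Figure D3:**
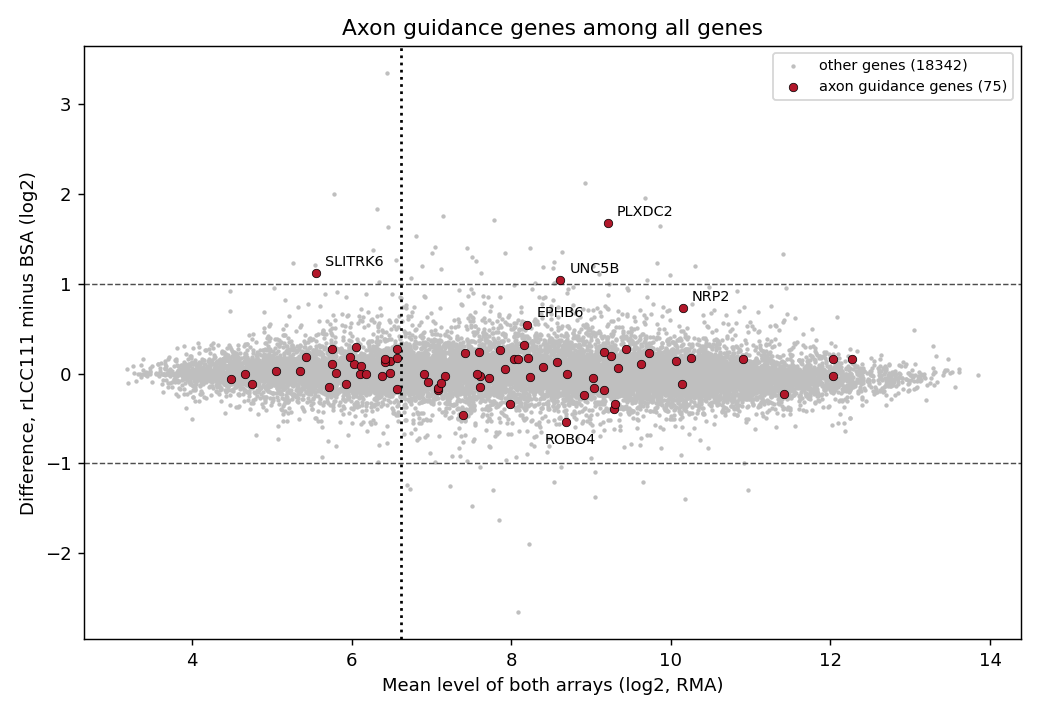
Log2 difference, rLCC111 minus BSA (vertical), against the mean log2 level of both arrays (horizontal) for 75 axon guidance genes (red) and all other genes (grey), 1 array per coating; dashed lines mark 2-fold and the dotted line the limit of 6.62. PLXDC2, SLITRK6 and UNC5B lie above the upper dashed line and no red point lies below the lower one.

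Ephrins and EPH receptors, the largest receptor family of the set, differed little, with the class B receptors as the group above 0. All 4 EPHB genes analysed, which leave out EPHB2, had a difference above 0 as deposited and under each other scaling. Of all genes, 46.2% lay above 0 as deposited, 26.4% after median centring, 44.2% without the lowess trend and 34.1% after quantile normalization. The difference of EPHB4, the smallest of the 4, was 0.10 as deposited and 0.023 after median centring. No member moved by more than 0.087 under a scaling, so the count of 4 could not change. EPHB6, a receptor whose kinase domain is inactive, was at 8.48 on rLCC111 and 7.93 on BSA (sequence 8136811), a fold of 1.46. Its difference was 0.47 after median centring and 0.48 after quantile normalization. EPHB1 was at 9.57 on rLCC111 and 9.29 on BSA, a fold of 1.21, and EPHB4, the receptor of EFNB2, at 9.67 on rLCC111 and 9.57 on BSA, a fold of 1.07. EPHB3 was dim on both arrays, at 6.49 on rLCC111 and 6.33 on BSA. The class B ephrins were mixed: EFNB2, the transmembrane ligand of EPHB4, was at 9.84 on rLCC111 and 9.61 on BSA (fold 1.17), and EFNB1 had a fold of 0.968. EFNB3 was above the limit on the rLCC111 array only, at 6.65, against 6.48 on BSA.

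In class A the values lay close to 0. EPHA2, the EPH receptor known for its part in carcinoma and melanoma cell invasion, was at 11.31 on rLCC111 and 11.53 on BSA, a fold of 0.857. EFNA1, its main ligand, was at 7.01 on rLCC111 and 7.17 on BSA, a fold of 0.893. EPHA4, which binds ephrins of both classes, was at 8.17 on rLCC111 and 8.005 on BSA (fold 1.12). EFNA5 was at 10.08 on rLCC111 and 10.20 on BSA, and EFNA2, EFNA3 and EFNA4 had folds of 1.12, 1.04 and 1.05. EFNA1, EFNA3 and EFNA4 are neighbours in RefSeq and did not share a direction. EPHA8 and EPHA10, of which EPHA10 has an inactive kinase, had folds of 0.935 and 0.932, while the dim second sequence of EPHA10 had one of 1.12. EPHA1, EPHA3, EPHA5, EPHA6 and EPHA7 were below the limit on both arrays, and EPHA1 and EPHA6 had the same value on each array, as did 1325 genes of all measured. The ephrin median of 0.07 became -0.014 after median centring and -0.0074 after quantile normalization, and that of the EPH receptors, 0.03, became -0.046 and -0.035, so that neither family has a settled direction.

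Secreted ligands and 4 receptor families were also counted as groups. The receptor families are wider than the receptors of these ligands. They also hold plexins of membrane-bound semaphorins, such as PLXNB1 for SEMA4D and PLXNC1 for SEMA7A, which lay above 0. Of 19 plexin, neuropilin, UNC5 and ROBO genes, 15 had a difference above 0, and 14 had one under each of the other 3 scalings. Of 13 class 3 semaphorin, Slit and secreted netrin genes, 3 had one above 0, which became 1 with the arrays centred on their medians and 2 with either other scaling. The share of all genes above 0 moved as well, being 46.2% as deposited, 26.4% after median centring, 44.2% without the lowess trend and 34.1% after quantile normalization. The medians were 0.17 for the receptors and -0.06 for the ligands. Neither group was uniform, since 2 of the 4 ROBO genes lay above 0 as deposited and 1 under each other scaling, and as deposited the secreted netrins lay within 0.05 of it, and DCC, a netrin receptor at -0.68, is not a member. This grouping was made after the values were seen and is a description of 2 arrays.

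**Figure D4:**
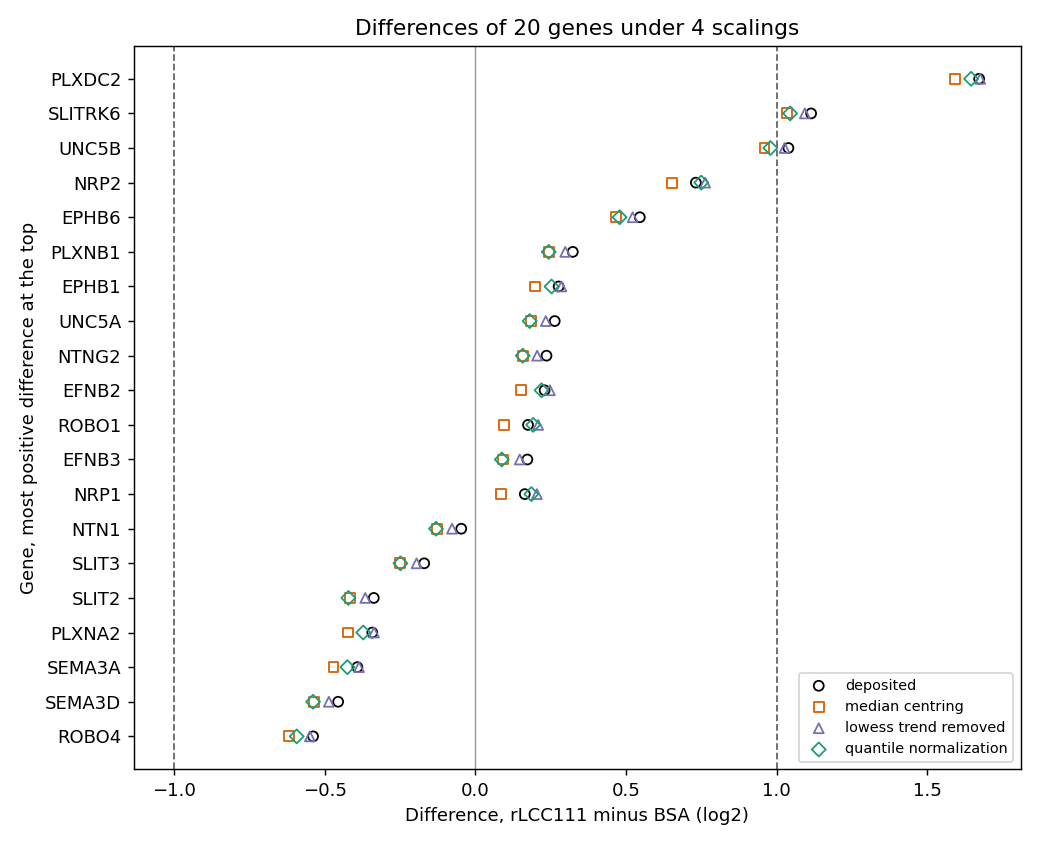
Log2 difference, rLCC111 minus BSA (horizontal), of 20 genes (vertical) as deposited (circles), after median centring (squares), after removal of a lowess trend (triangles) and after quantile normalization (diamonds), 1 array per coating; dashed lines mark 2-fold. Each gene keeps its side of 0, and UNC5B lies at 1.04 as deposited and left of the 2-fold line at 0.96 and 0.98 under the square and the diamond.

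Of 81 other genes of guidance signalling on 3 lists, 72 were measured, none was 2-fold different and DCC was the 1 past 0.5. These counts lie close to the shares of all genes, which were 0.239% higher and 0.0869% lower by 2-fold, and 1.68% higher and 1.0% lower by 0.5. Among 22 partner receptors and ligands, 10 had a difference above 0 and 9 below, with a median of 0.00. PTK7, an inactive receptor kinase of cell polarity, was at 8.41 on rLCC111 and 7.92 on BSA, a fold of 1.40. FLRT2, a ligand of UNC5 receptors, was at 7.90 on rLCC111 and 7.46 on BSA, a fold of 1.36. Among 41 intracellular transducers, 21 lay above 0 and 18 below, with a median of 0.02, which was -0.059 after median centring. ABLIM3, an actin-binding LIM protein, and MICAL1, which oxidizes actin downstream of plexins, had folds of 1.30 and 1.29, while TIAM1, an activator of Rac, had one of 0.784. MICAL1 stood at 9.26 on rLCC111 and 8.89 on BSA, TIAM1 at 7.81 on rLCC111 and 8.16 on BSA. Of 9 enzymes that cleave guidance proteins or build the heparan sulphate they bind, 8 had a difference above 0, with a median of 0.14, against 46.2% of all genes. The count was 8 without the lowess trend, 5 after median centring and 7 after quantile normalization, where 44.2%, 26.4% and 34.1% of all genes lay above 0. FURIN, a protease that processes class 3 semaphorins, was at 10.71 on rLCC111 and 10.42 on BSA (fold 1.22), PCSK6, a related convertase, had a fold of 1.24, and HS2ST1, a heparan sulphate sulfotransferase, one of 1.11.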

How the data were processed

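Total RNA of HT1080 cells kept for 24 h on rLCC111 or BSA was hybridized to 1 Human Gene 1.0 ST array per coating. The log2 expression values were made by the authors with RMA in Affymetrix Expression Console, a procedure of background correction, normalization between arrays and probe summary. For its version and settings, the sources used here give nothing. The authors' limma step was not repeated, since 1 array per coating leaves no residual degree of freedom. How precise a value is depends on the number of arrays, here 1 per coating.

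Of 33297 array sequences, 19460 carry 1 gene symbol in the platform annotation, 1754 several and 12083 none. Symbols were looked up by gene identifier in the RefSeq table of GRCh38.p14, which changed 0 of them. Only sequences with 1 symbol were used, and where several stood for a gene, the one with the highest mean was kept. No coordinates of array sequences are given, since no build is named. Members, gene lists and motifs were chosen with earlier results of these data known. EPHB2 and SEMA4C were not analysed here.

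A gene was called different at a log2 difference of at least 1 in size and, as a second size, 0.5. The named members are those at least 2-fold different, those above the limit of dim signals and past 0.5, and the 2 largest differences above the limit in each family, which gave 20. The other members are given because all were accounted for. Of the 3 lists of other guidance genes, the 3 largest differences above the limit were named, and SERPINF1 and NEO1 were added after their values were seen. Marker lists covered 10 mesenchymal, 11 neuronal, 9 endothelial, 8 epithelial and 8 blood genes, of which 10, 10, 9, 7 and 6 were measured and 7, 4, 2, 2 and 2 lay above the limit on both arrays. The differences were recomputed with each array centred on its median, without a lowess trend (span 0.2, 3 iterations), with quantile normalization, with the brighter or both arrays required above the limit, and with the mean over a gene's sequences. The counting was tested on simulated data, which checks its arithmetic and not the precision of the values on these arrays. The software was Python 3.11.15, with pandas 2.3.3, numpy 2.4.6 and statsmodels 0.14.6, and matplotlib 3.10.9 for figures.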

Additional observations from a re-analysis of the deposited data

How the results depend on the processing

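As deposited, the count of members at least 2-fold higher was 3 and that of members at least 2-fold lower 0, and neither moved by more than 1.5 times under any of the 6 alternatives. The count was 2 after median centring and quantile normalization, where UNC5B left it, and 2 under either filter on dim genes, which leaves out SLITRK6. The number of members at least 0.5 log2 lower was 1 as deposited and 2 after median centring and after quantile normalization, where SEMA3D joined ROBO4 at -0.53 and -0.54. The median over the members was 0.06 as deposited, -0.024 after median centring and -0.0059 after quantile normalization, so its sign is not settled. Median centring lowered the median of all genes by 0.079 and quantile normalization lowered it by 0.058. All 20 named members, which were picked by the size of their differences, kept their sign under median centring, lowess and quantile normalization. Among all 75 members, 7, 3 and 5 changed sign under these scalings, in that order. No paired analysis was possible because each coating has 1 array. The levels of the 23 members below the limit on both arrays are limited by dim signals.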
